A study of Saccharomyces cerevisiae with 36 samples.

Results

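The genes described here are the 60 budding yeast genes that encode the large-subunit (60S) ribosomal proteins from RPL1 to RPL35, without the stalk-base protein Rpl12. They were taken by their systematic gene identifiers and not by a cut on measured values, though with earlier results of these data known. They are 60 of the 6697 genes in the deposited count table. Of the 60, 52 form 26 pairs of paralogs named A and B, and 8 are single-copy genes (RPL3, RPL5, RPL10, RPL25, RPL28, RPL29, RPL30 and RPL32). RNA was sequenced from 36 libraries of 2 strains, both of the W303 Ade+ background and both with an mCherry tag on Ded1, a DEAD-box RNA helicase used in translation initiation. The strain with genotype Ded1-mCherry is called WT, and the strain with genotype Ded1_IDRm-mCherry is called IDRm, so WT is itself a tagged strain. Each strain was kept for 10 min at 30, 40 or 42 °C, and total RNA, insoluble RNA (pellet) and soluble RNA were sequenced at each temperature. That made 18 groups, each with 2 libraries, from cultures started in duplicate for each strain and split over the temperatures. How pellet and soluble RNA were separated, and whether pellet and soluble libraries with the same number come from 1 harvest, is not given in the sources used here.

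A yeast 60S subunit holds 25S, 5.8S and 5S ribosomal RNA and a large set of proteins, most of them present once. The whole-genome duplication left yeast with duplicates of most ribosomal protein genes, and the copies of a pair often encode nearly the same protein from unequal amounts of mRNA. Transcription of these genes depends on Rap1, Fhl1, Ifh1 and Sfp1, makes up a large part of RNA polymerase II output in growing cells, and is known to fall for a time after heat shock. Their mRNAs are short, abundant and efficiently translated.

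Library totals ran from 4934241 to 13730247 counts, and the correlation of replicate libraries was 0.989 to 0.996 in total RNA, 0.986 to 0.997 in pellets and 0.967 to 0.993 in soluble RNA. As a check of the heat labels, HSP104 in WT total RNA at 40 °C was 5.04 ± 0.16 log2 higher than at 30 °C. DED1, the edited gene, was 0.67 ± 0.17 log2 lower in IDRm than in WT at 30 °C in total RNA, which does not test the edit itself. WT 42 °C soluble replicate 2 had the lowest total, 4934241 counts, and the 60 genes took 7.27% of its counts against 5.12% in replicate 1. Throughout, levels are counts scaled to library size (CPM) with TMM factors, and changes are log2 values ± the standard error of the fit with n = 2 libraries per group. Calls, and the words rose and fell, rest on edgeR's quasi-likelihood test with the Benjamini-Hochberg adjusted p below 0.05, adjusted over all genes. Each library is scaled to its own size, so a value says how a gene moved against the rest of that RNA and not how many molecules a cell held.

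The comparison of paralogs rests on the bases at which the copies differ. The following stretches are the 60 coding bases, within 1 exon of both genes, with the most differences. They are shown for 3 pairs whose A to B ratio changed at 40 °C, described further on, and for RPL1, whose copies differ least. Sequences are from R64, 5′ to 3′ on the coding strand, and capitals mark the bases that differ between the copies.
RPL15A (YLR029C, chrXII:201977-202036, minus strand): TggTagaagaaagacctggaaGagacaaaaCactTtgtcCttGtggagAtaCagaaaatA
RPL15B (YMR121C, chrXIII:509735-509794, minus strand): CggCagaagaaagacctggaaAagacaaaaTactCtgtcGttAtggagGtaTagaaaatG
RPL11A (YPR102C, chrXVI:731683-731742, minus strand): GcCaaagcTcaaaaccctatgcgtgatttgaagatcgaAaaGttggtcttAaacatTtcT
RPL11B (YGR085C, chrVII:648842-648901, minus strand): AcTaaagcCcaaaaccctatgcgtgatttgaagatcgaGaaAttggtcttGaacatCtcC
RPL26A (YLR344W, chrXII:819813-819872, plus strand): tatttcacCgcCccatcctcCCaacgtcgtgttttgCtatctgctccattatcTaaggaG
RPL26B (YGR034W, chrVII:556343-556402, plus strand): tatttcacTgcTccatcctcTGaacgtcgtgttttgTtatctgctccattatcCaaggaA
RPL1A (YPL220W, chrXVI:135790-135849, plus strand): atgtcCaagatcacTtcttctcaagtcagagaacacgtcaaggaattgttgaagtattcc
RPL1B (YGL135W, chrVII:254641-254700, plus strand): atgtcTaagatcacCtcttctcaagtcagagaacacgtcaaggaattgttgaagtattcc

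Over the whole coding sequence RPL15A and RPL15B differed at 42 bases, RPL26A and RPL26B at 26, RPL11A and RPL11B at 16, and RPL1A and RPL1B at 4. In 7 of the 26 pairs both copies encode the same protein, and in 7 more the proteins differ at 1 residue. Coding identity ran from 78.9% for RPL22 to 99.4% for RPL1. A read can be placed in a copy only where the copies differ, and 50-base windows without a difference made up 81.0% of the coding sequence in RPL1, 80.6% in RPL35, 72.7% in RPL4, 60.9% in RPL11 and 56.9% in RPL7. How such reads were counted is not given in the sources used here, so the levels of these 5 pairs are uncertain. The share was 11.8% in RPL15 and 6.87% in RPL26.

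Of the 60 genes, 41 have an intron in the coding sequence, 2 of them with 2 introns (RPL7A and RPL7B), and 19 have none. Coding lengths ran from 180 bases (RPL29) to 1164 bases (RPL3). In 3 genes almost no reads were counted. RPL22A held at most 5 counts in any of the 36 libraries, RPL33A at most 16 and RPL28 at most 14. The table also has rows whose systematic names stand next to these genes on the opposite strand and that the R64 annotation used here does not list. YLR062C, next to RPL22A, held up to 45 counts, YPL142C, next to RPL33A, up to 229, and YGL102C, next to RPL28, up to 435. Whether reads were counted by strand or dropped where genes overlap is not given, so these 3 values are taken as unreliable and no fold change is drawn from them. The other 3 members with such a neighbour, RPL7B, RPL8B and RPL10, were measured at 21 to 217, 696 to 2813 and 942 to 11109 counts. Their neighbours YPL197C, YLL044W and YLR076C held 9 to 99, 0 to 3 and 16 to 209 counts. Over all libraries YPL197C held 1331 counts against 3452 for RPL7B, and how far this touches the level of RPL7B was not tested. In total RNA 58 genes passed the filter on low counts (RPL22A and RPL33A did not), and in the fractions 57 did, RPL28 falling out as well.

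At 30 °C the 60 genes took 5.01% and 5.59% of the counts in the 2 WT total libraries and 4.43% and 4.71% in the 2 IDRm libraries. Per kilobase of coding sequence, the WT mean was highest for RPL3 (8210 CPM per kb), which reaches into the peptidyl transferase centre, then RPL15A (6483), RPL27A (6341), RPL9A (4857) and RPL2B (4579). The replicate SD was 1148 CPM per kb for RPL3, 765 for RPL15A, 1219 for RPL27A, 1056 for RPL9A and 996 for RPL2B. RPL3 stood above RPL15A by more than either SD, while RPL15A and RPL27A, and RPL9A and RPL2B, differed by less than either SD. Genes of the same library rise and fall together with it, so these SDs do not measure the spread of a difference between genes. Apart from RPL22A, RPL28 and RPL33A, the lowest were RPL7B (24.9 CPM per kb), with the limit given above, and RPL15B (50.7).

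Copies of 1 pair were unequal at 30 °C in WT by 1.1 to 128-fold. RPL15A was at 4320 and 3654 CPM and RPL15B at 30.9 and 31.5 CPM, which made RPL15, a core protein of the 25S ribosomal RNA, the most unequal pair (128-fold). RPL7 was also unequal (15.8-fold, A higher), as were RPL16 (8.31-fold, B higher), RPL11 (5.96-fold, A higher) and RPL27 (5.03-fold, A higher). RPL4, RPL24 and RPL34 were within 1.22-fold.

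At 40 °C in WT, 54 of the 58 tested genes fell in total RNA and 0 rose, with a median change of -1.11 against 0.07 over all 6090 genes. By the same test 32.6% of all genes were called lower, 37.1% higher and 69.7% in either direction. RPL4A, whose protein lines the exit tunnel, fell from 275 and 231 CPM to 47.8 and 61.6 CPM, by 2.21 ± 0.16. The A copy of RPL4 shares most of its windows with the B copy, RPL4B, which stood at -1.87 ± 0.15. RPL26B, at the tunnel exit, fell from 999 and 735 CPM to 172 and 214 CPM (-2.16 ± 0.20), and RPL18B, on the solvent side, from 311 and 275 CPM to 66.6 and 69.5 CPM (-2.11 ± 0.12). In all 3 the 2 heated libraries lay far below both control libraries. RPL3 fell from 10501 and 8611 CPM to 3564 and 3868 CPM (-1.36 ± 0.13), to 38.9% of its 30 °C mean.

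The genes that fell least at 40 °C in WT were RPL15B (0.15 ± 0.16), RPL31A at the tunnel exit (-0.14 ± 0.14) and RPL11B (-0.38 ± 0.17), none of which was called. RPL31A was at 186 and 206 CPM at 30 °C and at 168 and 187 CPM at 40 °C, groups that overlap. RPL28, the other gene not called, had too few counts to be read. By position in the subunit, both L1-stalk genes fell, as did 4 of 5 genes of the peptidyl transferase region, 12 of 13 around the exit tunnel, 2 of 3 of the 5S particle, 27 of 28 of the body and solvent side and all 7 of the face toward the small subunit. Medians of these classes ran from -0.96 for the 5S particle to -1.67 for the L1 stalk. Genes with an intron (39 tested, median -1.14) and without one (19 tested, median -1.07) stood close together. Among single-copy genes RPL30, which in yeast represses the splicing of its own transcript, stood at -1.87 ± 0.21, RPL29, a small protein that yeast can live without, at -1.83 ± 0.40, RPL5, which binds 5S ribosomal RNA, at -0.96 ± 0.16, RPL25, the docking protein at the tunnel exit, at -0.90 ± 0.29, RPL10, which joins the subunit late, at -0.69 ± 0.14, and RPL32 at -0.60 ± 0.19, and all were called.

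In IDRm at 40 °C, 52 of 58 genes fell and 1 rose, with a median of -1.05 against 0.08 over all genes, of which 70.4% were called, 32.6% lower and 37.8% higher. RPL18B fell most, from 217 and 238 CPM to 41.7 and 49.0 CPM (-2.33 ± 0.12), followed by RPL21B (-2.02 ± 0.16) and RPL26B (-1.97 ± 0.20). The gene that rose was RPL15B, from 24.1 and 27.1 CPM to 39.6 and 29.8 CPM (0.44 ± 0.16, adjusted p = 0.0243 in edgeR). The 2 groups of RPL15B did not overlap, but its counts are low and 6 of 12 alternatives end the call. It stood at 0.13 (adjusted p = 0.476) with the trend on GC content and length removed, at 0.25 (0.196) with library totals alone and at 0.39 (0.0586) in DESeq2, and at 0.32, 0.49 and 0.21 without IDRm 30 °C total replicate 1, 30 °C replicate 2 and 40 °C replicate 1, also uncalled. The changes of the 58 genes in the 2 strains, which share no library, had a Pearson correlation of 0.93 across genes. Of the 54 genes called lower in WT and the 52 in IDRm, 51 were lower in both. With nearly all 58 called lower in each strain, most of that overlap was fixed in advance. No gene differed between the strains in its change from 30 to 40 °C (0 of 58 in edgeR, 0 at an unadjusted p under 0.05, 0 in DESeq2, with 1.64% of all genes called).

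**Figure D1:**
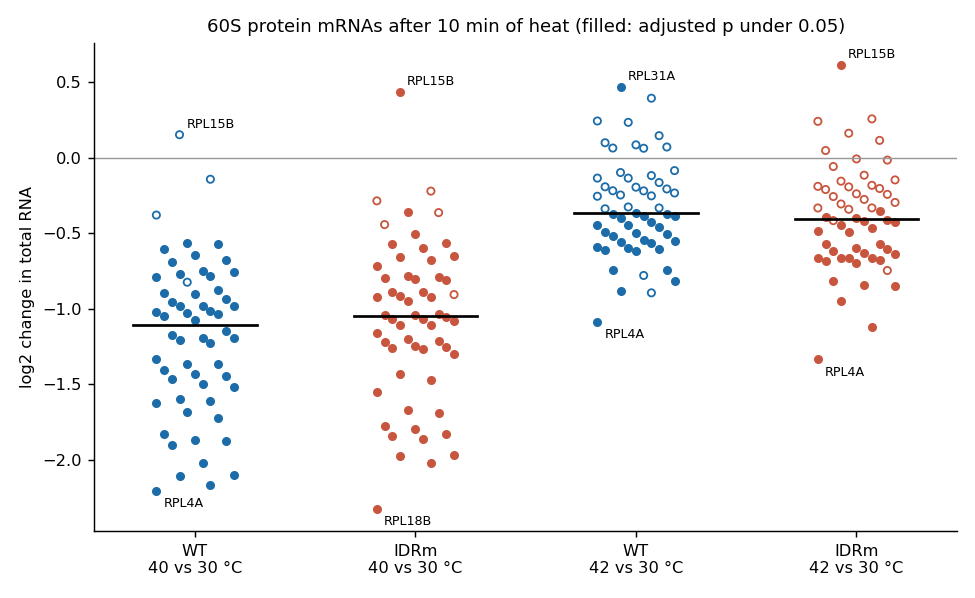
Log2 change in total RNA at 40 and 42 °C against 30 °C for the 58 tested genes in WT (blue) and IDRm (red), 1 point per gene, filled where called, with a line at the median. At 40 °C the medians lie at -1.11 and -1.05 and RPL15B is highest in both strains, and at 42 °C they lie at -0.37 and -0.40.

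At 42 °C against 30 °C the change was smaller. In WT 28 genes fell and 1 rose, with a median of -0.37 against 0.04 over all genes (61.4% called, 28.1% lower and 33.3% higher). The gene that rose was RPL31A, from 186 and 206 CPM to 320.5 and 224 CPM (0.47 ± 0.14), but with the trend on GC content and length removed it stood at -0.06, and without WT 30 °C total replicate 1 or WT 42 °C total replicate 1 it was not called (0.37 and 0.19). RPL4A (-1.09 ± 0.15), RPL4B (-0.88 ± 0.14) and RPL3 (-0.82 ± 0.13) were the called genes that fell most, while RPL29 stood at -0.89 ± 0.38 without a call. Without WT 30 °C total replicate 1 the count of called genes was 14 instead of 29, and with the GC and length trend removed it was 47. In IDRm 30 fell and 1 rose, with a median of -0.40 (64.8% of all genes called, 31% lower and 33.7% higher). RPL15B was again the one that rose (0.62 ± 0.16, at 40.1 and 38.4 CPM), though not with the GC and length trend removed (0.15, adjusted p = 0.433 in edgeR), and RPL4A (-1.33 ± 0.15), RPL4B (-1.12 ± 0.14) and RPL1A (-0.95 ± 0.15) were lowest. Without IDRm 30 °C total replicate 2 the count was 19 instead of 31, and with the GC and length trend removed it was 53. Of the 28 genes called lower in WT and the 30 in IDRm, 26 were shared. The share of all genes called lower in both strains is not given here.

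Set directly against 40 °C, 53 genes were higher at 42 °C in WT and 0 lower, with a median of 0.86 (46.9% of all genes called, 24.6% higher and 22.3% lower). RPL26B rose from 172 and 214 CPM to 688 and 536 CPM (1.66 ± 0.20), RPL18B by 1.51 ± 0.12 and RPL22B by 1.49 ± 0.17. RPL15B (0.08 ± 0.16) and RPL26A (0.39 ± 0.18) were not called. In IDRm 45 genes were higher and 0 lower, with a median of 0.64 (42.2% of all genes called, 21.2% higher), or 28 without IDRm 40 °C total replicate 1. RPL18B led again (1.67 ± 0.12). These comparisons share the 40 °C libraries with those against 30 °C. The strains' changes from 30 to 42 °C did not differ for any gene (0 of 58 called in edgeR, 0 at an unadjusted p under 0.05, 0 in DESeq2, with 11.8% of all genes called, 5.22% higher and 6.55% lower). The count was 3 without WT 42 °C total replicate 2 and 1 with the GC and length trend removed.

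Copies of a pair often changed by unequal amounts under heat. The A to B ratio was tested with limma on log2 ratios, adjusted over 58 pairs of yeast genes named A and B, of which 24 are of the 60S set (RPL22 and RPL33 could not be fitted). At 40 °C in WT 15 of the 24 ratios changed (62.5%), and 67.2% of all 58 pairs did. The share is near that of all pairs so named, which include the 24 and do not stand for yeast paralogs at large. In 9 of the 15 the ratio moved toward the A copy, and in 6 toward the B copy. RPL11, RPL26, RPL7 and RPL15 were among those that changed most.

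RPL11A, of the 5S particle, went from 835 and 716 CPM to 247 and 266 CPM, while RPL11B went from 123 and 137 CPM to 96.2 and 104 CPM. The log2 A to B ratio changed by -1.22 ± 0.18 (adjusted p = 4.48e-05 in limma). RPL15A went from 4320 and 3654 CPM to 2032 and 2000 CPM, while RPL15B was at 30.9 and 31.5 CPM and then at 29.9 and 39.3 CPM, a ratio change of -1.11 ± 0.19. The A copy carried most of the mRNA in both pairs and was the copy that lost more. In RPL26 it was the B copy, there the major copy, that lost more, with a ratio change of 1.18 ± 0.18. RPL26A went from 284 and 190 CPM to 100 and 139 CPM, while RPL26B, 3.66-fold higher at 30 °C, fell to 172 and 214 CPM. RPL7 changed by 1.13 ± 0.23, with more lost from the minor copy. RPL7B was only at 18.4 and 18.2 CPM at 30 °C and at 5.39 and 4.45 CPM at 40 °C. It shares 56.9% of its windows with RPL7A. Pairs called in both strains went both ways. The minor copy also lost more in RPL9, RPL13, RPL20, RPL21, RPL27 and RPL31, and the major copy in RPL2 and RPL19. RPL9A, the major copy, kept 47.5% of its 30 °C mean in WT and RPL9B 31.1%.

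**Figure D2:**
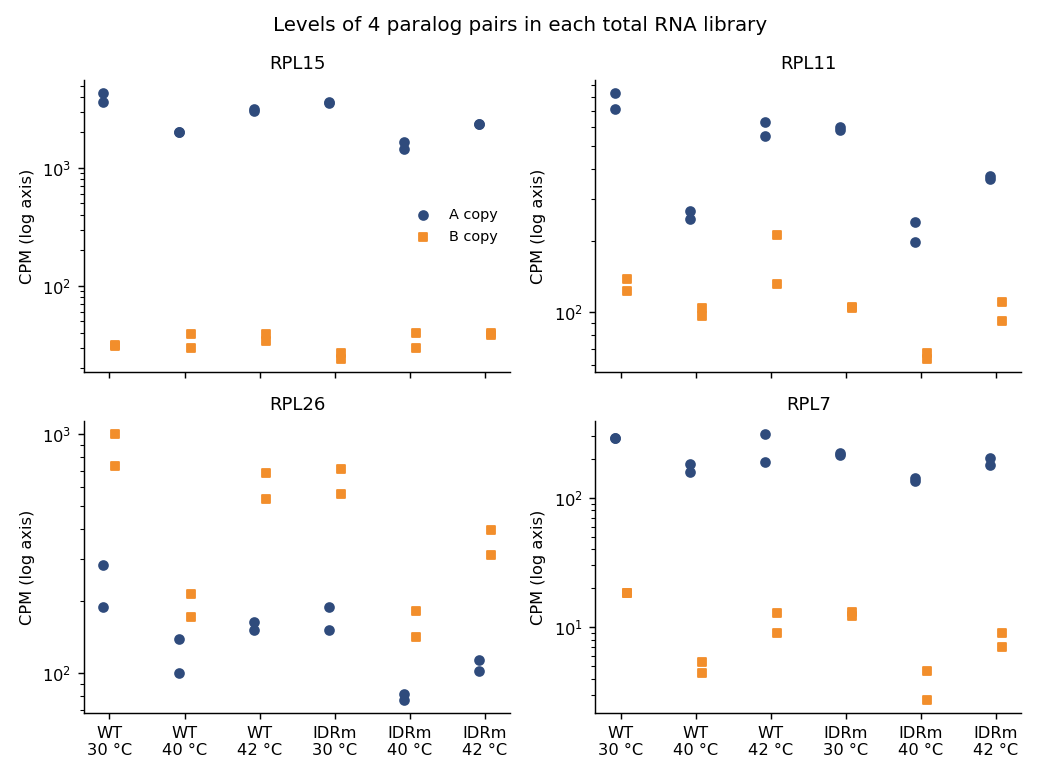
CPM on a log axis in each total RNA library for the A copies (circles) and B copies (squares) of RPL15, RPL11, RPL26 and RPL7, in 6 groups of 2 libraries. RPL15A lies between 1454 and 4320 CPM and RPL15B between 24.1 and 40.1 CPM, and RPL26B falls toward RPL26A at 40 °C.

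In IDRm at 40 °C 13 of 24 ratios changed (54.2%, against 60.3% of all pairs), all 13 of them also called in WT and in the same direction. RPL15 changed by -1.64 ± 0.19, RPL7 by 1.15 ± 0.23, RPL26 by 0.88 ± 0.18 and RPL9 by 0.78 ± 0.09. Over the 24 pairs the ratio changes of the strains had a Pearson correlation of 0.93, as a description across pairs. In RPL15 the A copy was called lower (-1.21 ± 0.13) and the B copy higher, a split that is lost under the 6 alternatives that end the RPL15B call. At 42 °C 5 ratios were still changed in WT (29.3% of all pairs), led by RPL11 (-0.75 ± 0.18), RPL15 (-0.60 ± 0.19) and RPL20 (-0.44 ± 0.12), and the count was 0 without WT 30 °C total replicate 1, 3 without WT 42 °C total replicate 1 and 1 without replicate 2. In IDRm 9 were changed (41.4% of all pairs), led by RPL15 (-1.23 ± 0.19), RPL11 (-0.62 ± 0.18) and RPL21 (0.61 ± 0.11), or 5 without IDRm 30 °C total replicate 2 and 4 without IDRm 42 °C total replicate 1. All 5 pairs called in WT were called in IDRm in the same direction. At 30 °C no ratio differed between the strains (0 of 24 in limma, 0% of all pairs, 2 at an unadjusted p under 0.05, 0 in edgeR), or 1 without IDRm 30 °C total replicate 2.

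**Figure D3:**
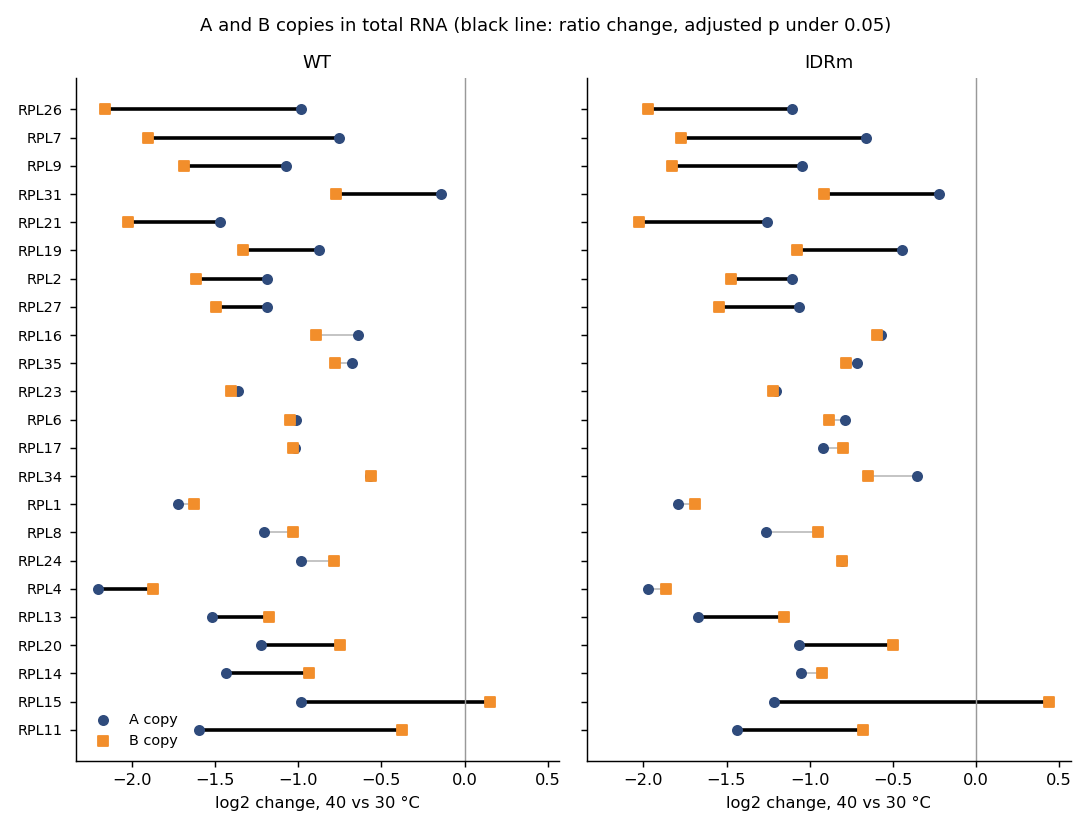
Log2 change in total RNA at 40 against 30 °C for the A copy (circle) and the B copy (square) of the pairs reported in WT and IDRm, ordered by the ratio change in WT, with a black line where the ratio change was called. The pairs at the top, led by RPL26, lost more of the B copy and those at the bottom, led by RPL11, more of the A copy.

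Upstream sequence was read for the pairs RPL26 and RPL11. In RPL26 both copies hold an exact match to the Rap1 core searched for, and in RPL11 only the B copy does. The windows are the 300 bases that begin 500 bases before the start codon in R64, and capitals mark the Rap1 core ACCCNNACA or its reverse complement TGTNNGGGT.
RPL26A (chrXII:818812-819111, plus strand): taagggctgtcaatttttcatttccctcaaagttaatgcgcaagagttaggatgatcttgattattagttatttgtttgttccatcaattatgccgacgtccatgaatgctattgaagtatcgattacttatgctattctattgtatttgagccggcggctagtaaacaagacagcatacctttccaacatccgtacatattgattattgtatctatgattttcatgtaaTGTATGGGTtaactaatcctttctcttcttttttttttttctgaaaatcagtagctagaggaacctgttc
RPL26B (chrVII:555312-555611, plus strand): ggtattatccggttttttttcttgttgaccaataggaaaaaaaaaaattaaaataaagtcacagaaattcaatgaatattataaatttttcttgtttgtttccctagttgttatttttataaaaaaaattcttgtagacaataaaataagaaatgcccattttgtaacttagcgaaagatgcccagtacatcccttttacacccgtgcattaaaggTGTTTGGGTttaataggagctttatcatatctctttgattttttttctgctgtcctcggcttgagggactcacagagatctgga
RPL11A (chrXVI:731949-732248, minus strand): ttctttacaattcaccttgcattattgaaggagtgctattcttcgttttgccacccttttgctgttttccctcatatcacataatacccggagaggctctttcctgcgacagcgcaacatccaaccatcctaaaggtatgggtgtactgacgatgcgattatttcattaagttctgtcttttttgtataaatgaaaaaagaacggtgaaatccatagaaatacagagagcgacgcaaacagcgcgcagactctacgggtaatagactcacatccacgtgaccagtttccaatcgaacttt
RPL11B (chrVII:649108-649407, minus strand): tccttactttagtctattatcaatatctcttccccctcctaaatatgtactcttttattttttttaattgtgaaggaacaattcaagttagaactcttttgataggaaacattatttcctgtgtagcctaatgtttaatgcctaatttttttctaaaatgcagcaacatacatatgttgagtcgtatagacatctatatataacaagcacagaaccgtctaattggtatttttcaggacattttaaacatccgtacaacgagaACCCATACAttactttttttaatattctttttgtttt

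The core stood in this window of 26 of the 60 genes (43.3%), against 3.51% of the windows of all 6019 protein-coding genes, and its first base lay 270 bases before the start codon in RPL26A, 284 in RPL26B and 237 in RPL11B. In the window first set, from 250 bases before to 50 after the start codon, it stood in 10% of the 60 genes and 2.82% of all. In that window GACGCA, the Fhl1 motif, stood in 16.7% of the 60 and 6.26% of all. The Abf1 motif (TCA, then 6 bases of any kind, then ACG) stood in 11.7% and 14.3%, each searched on both strands. No counts of these 2 motifs are given for the farther window, so the 3 motifs are on equal terms only in the nearer one. The median change at 40 °C in WT was -1.17 for the 25 tested genes with the core in the window that begins 500 bases before the start codon. It was -1.03 for the 33 without it, and the ranges were -2.16 to -0.38 and -2.21 to 0.15. These matches describe letters in the windows and not binding. Only exact matches were counted, so a window without the core can hold a near match, such as ggtatgggt in RPL11A.

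Between the strains, levels in total RNA were mostly lower in IDRm. At 30 °C 57 of 58 genes had a value below 0, with a median of -0.41 against 0.00 over all genes, and 13 were called, all lower (12.9% of all genes called, 4.99% lower and 7.93% higher). RPL4A was at 275 and 231 CPM in WT and 167 and 167 CPM in IDRm (-0.60 ± 0.15), and RPL5 at 973 and 917 CPM in WT and 637 and 679 CPM in IDRm (-0.52 ± 0.16), groups that did not overlap in either gene. RPL25 had the lowest value (-0.70 ± 0.28) without a call. The count was 1 without WT 30 °C total replicate 1, 31 without WT replicate 2, 0 without IDRm replicate 1, 2 without IDRm replicate 2, 1 in a fit of these groups alone and 4 with library totals alone. At 40 °C 8 were called, all lower (11.1% of all genes called, 4.11% lower and 7.03% higher), among them RPL8A (-0.62 ± 0.15), RPL11B (-0.61 ± 0.18) and RPL5 (-0.61 ± 0.16). The count was 4 and 0 without WT 40 °C total replicates 1 and 2, 0 and 1 without IDRm 40 °C total replicates 1 and 2, 27 in a fit of these groups alone and 17 with the GC and length trend removed.

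At 42 °C 30 of 58 were called, all lower in IDRm, with a median of -0.46 (23.4% of all genes called, 11% lower). RPL4A was at 136 and 103 CPM in WT and 60.8 and 71.8 CPM in IDRm (-0.85 ± 0.15), RPL21B at -0.81 ± 0.15 and RPL4B at -0.81 ± 0.14. Among the single-copy genes RPL5 was called (-0.67 ± 0.16) and RPL3 was not (0.00 ± 0.13). Leaving out WT 42 °C total replicate 1 gave 5 calls, and leaving out IDRm replicate 1 or 2 gave 14 or 6.

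The pellet and soluble libraries ask which transcripts were enriched in insoluble RNA. At 30 °C in WT, 56 of 57 genes were lower in the pellet than in soluble RNA and 0 higher, with a median log2 difference of -2.0 against -0.02 over all 6141 genes (68.2% called, 34.8% lower). RPL27A (-2.69 ± 0.30), RPL19B (-2.63 ± 0.24) and RPL9A (-2.57 ± 0.32) were lowest. RPL10 was at 192 and 174 CPM in the pellet and at 901 and 1019.5 CPM in soluble RNA (-2.39 ± 0.30). RPL4A (-0.57 ± 0.16) and RPL4B (-0.58 ± 0.14) were closest to even among the called genes. RPL7B stood at 0.38 ± 0.19 without a call. In IDRm 54 were lower and 1 higher, with a median of -1.84 (68.2% of all genes called, 33.7% lower and 34.5% higher). The higher one was RPL7B (0.59 ± 0.19), at 21.2 and 22.6 CPM in the pellet and 11.7 and 17.3 CPM in soluble RNA. Without IDRm 30 °C pellet replicate 2 or soluble replicate 1 RPL7B was not called (0.54 and 0.34). RPL29 was lowest (-3.10 ± 0.72).

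At 40 °C the gap narrowed. In WT 42 genes were lower and 2 higher in the pellet, with a median of -1.06 (73.9% of all genes called, 36.1% lower and 37.9% higher). RPL4A was at 127 and 140 CPM in the pellet and 51.8 and 59.3 CPM in soluble RNA (1.26 ± 0.17). RPL4B was at 93.6 and 101 CPM in the pellet and 63.0 and 73.9 CPM in soluble RNA (0.51 ± 0.15), but at -0.11 with the GC and length trend removed. RPL3 stood at 0.10 ± 0.16, RPL5 at 0.05 ± 0.19 and RPL10 at -2.34 ± 0.29. In IDRm 32 were lower and 6 higher, with a median of -0.72. Of all genes 71.8% were called, 35.2% lower and 36.6% higher. Among the 57 genes 66.7% were called and 10.5% called higher, both below the shares of all genes. The 6 higher genes were RPL4A (1.82 ± 0.17), RPL4B (1.19 ± 0.15), RPL8A (0.78 ± 0.17), RPL5 (0.68 ± 0.19), RPL17A (0.56 ± 0.17) and RPL15A (0.47 ± 0.20). With the GC and length trend removed the split was 4 higher and 23 lower in WT and 17 higher and 17 lower in IDRm. The shift of the pellet to soluble ratio from 30 to 40 °C was called for 19 genes in WT, all upward (21% of all genes called, 13% upward, median 0.78), and for 28 in IDRm, all upward (21.9% and 13%, median 1.03). RPL4A (1.83 ± 0.23), RPL15A (1.78 ± 0.28) and RPL11A (1.73 ± 0.34) led in WT. RPL1A (2.31 ± 0.53), RPL11A (2.17 ± 0.34) and RPL15A (2.10 ± 0.28) led in IDRm.

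The share of counts taken by the 60 genes moved in both fractions. The 60 genes took 1.48% to 1.63% of the counts in the WT pellets at 30 °C, 1.68% to 1.80% at 40 °C and 1.30% to 1.34% at 42 °C. In WT soluble RNA they took 4.92% to 5.08%, 2.35% to 2.57% and 5.12% to 7.27%. In IDRm pellets they took 1.60% in both libraries at 30 °C, 1.56% to 1.66% at 40 °C and 0.97% to 1.48% at 42 °C, and in IDRm soluble RNA 4.65% to 4.93%, 1.68% to 2.09% and 2.90% to 4.19%. From 30 to 40 °C the soluble shares of both strains fell outside their 30 °C range, while the IDRm pellet ranges overlapped.

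At 42 °C in WT all 57 genes were lower in the pellet, with a median of -2.89 (79.1% of all genes called, 36.7% lower). RPL9A (-4.20 ± 0.35), RPL29 (-4.10 ± 0.76) and RPL21A (-3.94 ± 0.34) were lowest, and RPL15B (-0.50 ± 0.13), RPL4A (-0.52 ± 0.16) and RPL7B (-0.91 ± 0.21) highest. RPL15B stood at 0.42 with the GC and length trend removed. In IDRm 54 were lower and 1 higher, with a median of -1.96 (78.7% of all genes called, 37.4% lower and 41.3% higher). The higher one was RPL4A (1.02 ± 0.16), at 147 and 139 CPM in the pellet and 71.9 and 69.0 CPM in soluble RNA. RPL8A, called lower, stood at 0.09 with the GC and length trend removed. Against 30 °C the ratio shifted down for 35 genes and up for 1 (RPL15B, 0.49 ± 0.18) in WT (38.3% of all genes called, median -1.03), or 17 in all without WT 42 °C soluble replicate 2. The upward call of RPL15B is lost under 11 of 16 alternatives, among them DESeq2 size factors in edgeR (0.26, adjusted p = 0.281), the replicate block (0.50, adjusted p = 0.0524 in edgeR) and 7 of the 8 fits that leave out 1 library. In IDRm 6 shifted down and 5 up (37.2% of all genes called, median -0.18), led upward by RPL1A (1.61 ± 0.53) and downward by RPL7B (-1.44 ± 0.30). With DESeq2 size factors in edgeR that split was 5 up and 10 down, with library totals alone 7 and 5, with the GC and length trend removed 11 and 5, and with the replicate block 7 and 11. Without IDRm 42 °C soluble replicate 2 the count was 20 instead of 11.

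**Figure D4:**
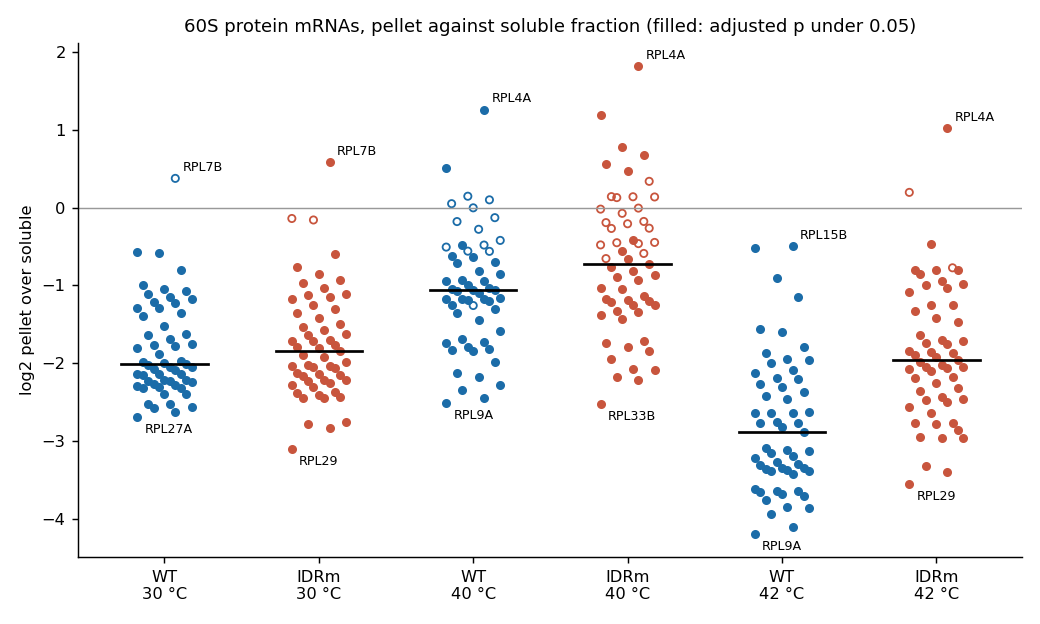
Log2 ratio of pellet to soluble level for the 57 tested genes in WT (blue) and IDRm (red) at 30, 40 and 42 °C, 1 point per gene, filled where called, with a line at the median. The medians run from -2.0 to -1.06 to -2.89 in WT and from -1.84 to -0.72 to -1.96 in IDRm, and RPL4A lies above 0 in both strains at 40 °C.

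The pellet to soluble ratio rose with coding length across the genes, as a description of 57 genes that share their libraries. Pearson's r was 0.53, 0.57 and 0.48 in WT at 30, 40 and 42 °C and 0.64, 0.66 and 0.58 in IDRm, and Spearman's rho ran from 0.30 to 0.57. At 40 °C in WT the 5 genes above 0 were RPL3, RPL4A, RPL4B and RPL5, the longest of the set, and RPL7B, while RPL10, with 666 bases, was the third lowest. Change in total RNA at 40 °C had an r of -0.18 in WT and -0.25 in IDRm with coding length.

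**Figure D5:**
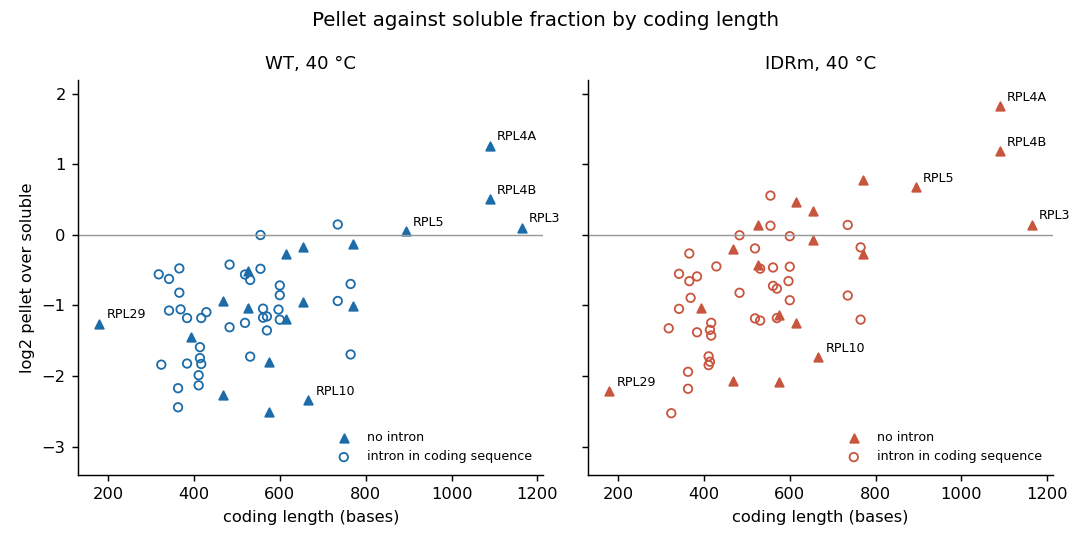
Log2 ratio of pellet to soluble level at 40 °C against coding length in bases for the 57 tested genes in WT and IDRm, triangles for genes with no intron and open circles for genes with an intron in the coding sequence. RPL4A, of 1089 bases, is highest in both strains, and RPL29, of 180 bases, lies below 0.

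The ratio of A to B differed between pellet and soluble RNA in 13 of 24 pairs in WT at 30 °C (43.1% of all 58 pairs), 16 at 40 °C (67.2%) and 17 at 42 °C (63.8%), and in IDRm in 9 (37.9%), 18 (72.4%) and 17 (69%). As shares of the 24 these were 54.2%, 66.7% and 70.8% in WT and 37.5%, 75% and 70.8% in IDRm. The 58 pairs include the 24, and the shares in WT at 40 °C and in IDRm at all 3 temperatures lie near those of all pairs named A and B. At 40 °C 15 pairs were called in both strains, all in the same direction. RPL24A, whose protein bridges to the small subunit, was at 89.0 and 90.9 CPM in the WT pellet at 40 °C and at 399 and 472 CPM in soluble RNA, while RPL24B was at 305 and 346 CPM in the pellet and 607 and 633 CPM in soluble RNA. The A copy was thus lower in the pellet relative to the B copy by 1.34 ± 0.13 in WT and 1.86 ± 0.13 in IDRm. In RPL15 the sign of this difference varied with temperature. The A to B difference of pellet against soluble was -1.07 ± 0.20 at 30 °C in WT, 0.90 ± 0.20 at 40 °C and -2.30 ± 0.20 at 42 °C. In IDRm it was -0.46 ± 0.20 at 30 °C, without a call, 1.73 ± 0.20 at 40 °C and -0.50 ± 0.20 at 42 °C, and the difference between the strains was not tested. RPL15A went from -2.05 ± 0.20 to -0.28 ± 0.20 and -2.83 ± 0.21, while RPL15B went from -0.99 ± 0.13 to -1.18 ± 0.13 and -0.50 ± 0.13. In IDRm at 40 °C RPL15A was called higher in the pellet and RPL15B lower (-1.25 ± 0.13). RPL16, on the solvent side, differed by 0.93 ± 0.30 at 30 °C and 1.76 ± 0.30 at 42 °C in WT. Its log2 A to B ratios in WT at 42 °C were -1.19 and -1.41 in the pellet and -2.54 and -3.57 in soluble replicates 1 and 2. At 40 °C in WT they were -2.65 and -2.25 in the pellet and -2.23 and -2.40 in soluble RNA, groups that overlap. RPL7 differed by -1.67 ± 0.25 at 30 °C in WT. Without WT 30 °C pellet replicate 2, soluble replicate 1 or soluble replicate 2 the WT count at 30 °C was 8, 8 and 7, and without IDRm 30 °C soluble replicate 1 the IDRm count was 5.

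Whether the strains differed in the pellet to soluble ratio was tested at each temperature. At 30 °C 0 of 57 genes were called in edgeR (1 at an unadjusted p under 0.05, 0 in DESeq2, 1.09% of all genes called), and at 40 °C 0 (10 at an unadjusted p under 0.05, 1 in DESeq2, 1.11% of all genes called). At 42 °C 20 were called, all higher in IDRm, with a median over the 57 of 0.91 against 0.00 over all genes (6.95% of all genes called, 4.66% higher). RPL1A, of the L1 stalk that handles transfer RNA leaving the ribosome, was at 110 and 104 CPM in the WT pellet and 676 and 1189.9 CPM in WT soluble RNA. It was at 225 and 113 CPM in the IDRm pellet and 400.4 and 177 CPM in IDRm soluble RNA, a difference of 2.35 ± 0.53. RPL1B stood at 1.96 ± 0.43 and cannot be told well from RPL1A by its reads. RPL32 (1.08 ± 0.30) and RPL5 (0.92 ± 0.26) were called and RPL3 (0.57 ± 0.23) and RPL10 (0.54 ± 0.40) were not. Of 16 alternatives, 4 end the call of RPL1A, 3 that of RPL1B, 7 that of RPL32 and 8 that of RPL5. The count was 8 without WT 42 °C soluble replicate 2, which holds the higher of the WT soluble values, 42 (41 higher and 1 lower) without soluble replicate 1, 8 and 9 without WT pellet replicates 1 and 2, 11 without IDRm pellet replicate 1, 31 and 11 without IDRm soluble replicates 1 and 2, and 0 in a fit of the 4 groups alone. The change of the shift from 30 °C did not differ between the strains at 40 °C (0 of 57 in edgeR, 1 at an unadjusted p under 0.05, 0 in DESeq2, 0% of all genes called). At 42 °C it was called for 0 of 57 (21 at an unadjusted p under 0.05, 3 in DESeq2, 0.114% of all genes called), but for 27 without WT 42 °C soluble replicate 1 and 1 without IDRm 42 °C pellet replicate 2.

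Related genes give the setting. At 40 °C in WT 56 of 57 small-subunit protein genes fell (median -1.11) and 17 of 19 tested other 60S protein genes fell (median -1.04), so the 60S set stood at the level of the small-subunit set. All 17 genes for factors that load proteins onto the 60S subunit or export it fell, with a median of -2.74. Among them were REI1, which acts on cytoplasmic pre-60S particles (-4.46 ± 0.24), ALB1 (-4.43 ± 0.28) and ARX1 (-3.82 ± 0.22). Of 7 regulator genes 1 rose and 2 fell. CRF1 rose by 1.30 ± 0.16, and FHL1, which recruits Ifh1, fell by 1.22 ± 0.17. In the pellet at 40 °C in WT 46 of 57 small-subunit genes were lower than in soluble RNA, with a median of -1.27. The strain difference in total RNA at 42 °C was shared by these sets. In total RNA 23 of 57 small-subunit genes (median -0.39) and 10 of 19 other 60S genes (median -0.40) were lower in IDRm. For the pellet to soluble ratio at 42 °C 13 of 57 small-subunit genes were higher in IDRm and 0 lower (median 0.82). Of the 19 other 60S genes 1 was higher and 1 lower (median 0.91), so that set shared the median but not the calls.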

How the data were processed

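RNA depleted of ribosomal RNA was measured in 36 libraries, 2 per group. Per the submitters' processing notes, reads were handled with bcl2fastq 2.19.1 and STAR 2.5.2b and the genome build was R64. The authors deposited raw counts per gene, with no normalization. Neither the counting tool nor its strand setting or annotation release is stated there or in the labels. Gene positions, introns and sequences come from RefSeq R64, where all 60 symbols matched by locus tag. Members and lists were chosen with earlier results of these data known.

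The 12 total libraries (6090 genes) and the 24 pellet and soluble libraries (6141 genes) were fitted separately, with 1 term per group, in edgeR 4.0.16 (quasi-likelihood, robust, TMM, filterByExpr at a minimum count of 10) in R 4.3.3, after tests on simulated data. Paralog ratios were log2 of counts plus 0.5, tested with limma 3.58.1 over gene pairs named A and B, since no protein table was used to pair them. Named genes were the 3 highest and 3 lowest of each contrast, the 8 single-copy genes, the 5 pairs with the largest called ratio change and pairs called in opposite directions. Others, such as the levels of RPL15A, RPL17A and RPL24B or the members of a named pair, were named after their values were seen. Alternatives were DESeq2 1.42.0, its size factors, no filter, a GC and length correction, fits of the compared groups alone, a replicate block, each library left out, a pseudocount of 5 and a mean count of 100 for pairs. Library totals alone, pairs from reciprocal protein matches and members with distinct reads were added after seeing the data. No per-sample column was left unused. Library totals ran from 4934241 to 13730247 counts, and with 2 libraries per group the error of each value rests on the spread shared by all groups of a fit. Results of 1 gene, and of the pair it belongs to, enter the counts but are not reported here.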

Additional observations from a re-analysis of the deposited data

Results flagged for a closer look

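A difference between the strains in the pellet to soluble ratio at 42 °C, shown by the test of the difference itself, was found for 20 of 57 genes, all with a higher ratio in IDRm, against 6.95% of all genes called and 4.66% higher. Of the genes named by rule it was largest for RPL1A (2.35) and RPL1B (1.96), which share 81.0% of their windows, then RPL32 (1.08) and RPL5 (0.92). Beside it, the 60 genes took 7.27% of the counts of WT 42 °C soluble replicate 2, the library with the lowest total, and 5.12% of those of replicate 1. In IDRm at 42 °C they took 4.19% and 2.90% of the soluble counts and 1.48% and 0.97% of the pellet counts, and RPL1A was at 225 and 113 CPM in the 2 pellets. Without replicate 2 the count was 8, and without replicate 1 it was 42. In a fit of the 4 groups alone it was 0. The part of that library in the result beyond this count was not tested. With 2 libraries per group, no library could be set against the spread of its own group. The difference is not particular to the 60 genes, since small-subunit genes had a median of 0.82, with 13 of 57 called higher and 0 lower.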

How the results depend on the processing

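The counts of genes and pairs below are of those called, by comparison. With the trend on GC content and length removed they were 47 for 42 against 30 °C in WT total RNA, 53 for the same in IDRm, 17 for the strains at 40 °C and 1 for the strain difference of the change from 30 to 42 °C. For pellet against soluble RNA they were 27 in WT at 40 °C, 1, 6 and 2 for the strains at 30 °C, at 40 °C and in the shift to 42 °C. Values that turned sign under it were RPL31A in WT at 42 °C (-0.063), RPL32 in IDRm at 42 °C (-0.63), RPL4B in the WT pellet at 40 °C (-0.11), RPL15B in the WT pellet at 42 °C (0.42) and RPL8A in the IDRm pellet at 42 °C (0.090), and the cause was not tested. With library totals alone, chosen after seeing the data, the counts were 4 for the strains at 30 °C, 30 and 23 for the WT shifts to 40 and 42 °C, and 13 for the pellet to soluble ratio of the strains at 42 °C. This scaling moved the median of all genes by up to 0.47, in the WT pellet at 42 °C. With genes of distinct reads, also chosen after seeing the data, fewer genes were counted, giving 5 for the strains at 40 °C and 7 for the IDRm shift to 42 °C, and pairs from reciprocal matches gave 1 for the strains at 30 °C. Fits of the compared groups alone gave 1 and 27 for the strains in total RNA at 30 and 40 °C, 40 for the WT shift to 40 °C, and 17 and 0 for the pellet to soluble ratio of the strains at 40 and 42 °C. DESeq2 gave 18 for the IDRm shift to 42 °C, and 1 and 3 for the strains' pellet to soluble ratio at 40 °C and its shift to 42 °C.

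Replicate numbers were checked for pairing. Deviations of pellet and soluble libraries with the same strain, temperature and number correlated at -0.12 to 0.61, below 0.1 in 4 of 6. The value of 0.61 was for IDRm at 42 °C. The main fit did not take the numbers as pairs, though a low correlation cannot show that libraries are unpaired. It also did not use the split of cultures over the temperatures. The fit with a replicate block gave 18 for the IDRm shift to 42 °C, 2 for the strains' ratio at 40 °C and 3 for their difference in the shift to 42 °C, and moved no other count by over 1.5 times.

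Leaving out each library in turn gave, for total RNA, 14 to 37 genes (WT, 42 against 30 °C), 19 to 31 (IDRm, 42 against 30 °C), 28 to 43 (IDRm, 42 against 40 °C), 0 to 31, 0 to 4 and 5 to 35 (strains at 30, 40 and 42 °C) and 0 to 3 (strain difference of the change to 42 °C). For pairs it gave 0 to 4 (WT, 42 °C), 4 to 10 (IDRm, 42 °C), 0 to 1 (strains at 30 °C), and 7 to 11 and 5 to 12 (pellet against soluble at 30 °C in WT and IDRm). For the pellet to soluble ratio it gave 8 to 42 genes (strains at 42 °C), 0 to 27 (strain difference of the shift to 42 °C), 17 to 45 (WT shift to 42 °C) and 8 to 20 (IDRm shift to 42 °C). The lone library left in such a group is assumed to vary like the other groups. RPL22A, RPL28, RPL33A and RPL7B are limited by low counts, and copies of RPL1, RPL4, RPL7, RPL11 and RPL35 by shared sequence.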
